A study of Mus musculus with 6 samples.

Results

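DNA replication and S-phase genes were followed here across 3 sorted dendritic cell populations of the mouse spleen. The set holds 58 genes of G1/S control, origin licensing, replication, nucleotide supply and the replication checkpoint, listed by symbol and taken from probe sets with exactly 1 gene symbol. All 58 were measured, among 19938 genes in all. The populations were CD24+CD172a+ cDC2, CD24-CD172a+ cDC2 and cDC1, with 2 Affymetrix arrays each, and all came from spleens of wild-type (WT) mice. Conventional dendritic cells (cDC) are antigen-presenting cells, cDC1 being the type known for cross-presentation to CD8 T cells and cDC2 for presentation to CD4 T cells. CD172a is the protein of Sirpa, and CD24 that of Cd24a. The sample labels name the CD24-CD172a+ arrays by CD172a alone and the cDC1 arrays by CD24 alone, and the design text supplies the rest of each phenotype. Mouse strain, age and sex, and whether animals were pooled, are not given in the sources used here. The labels also do not say that the arrays of a population came from separate animals, so the p-values measure only the spread between these arrays.

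The sorted phenotypes were checked on their own transcripts, in log2 RMA intensity, the scale of every level below. Cd24a measured 10.94 and 10.82 in CD24+CD172a+ cDC2, against 8.68 and 8.97 in CD24-CD172a+ cDC2 and 11.83 and 11.66 in cDC1. Sirpa measured 10.01 and 10.27 in CD24+CD172a+ cDC2, against 10.18 and 10.20 in CD24-CD172a+ cDC2 and 4.97 and 5.39 in cDC1. Xcr1, the cDC1 chemokine receptor, measured 4.79 and 5.45 in CD24+CD172a+ cDC2, against 5.65 and 6.07 in CD24-CD172a+ cDC2 and 10.71 on both cDC1 arrays. Each marker followed its sort label. Replicate arrays correlated across all genes at r = 0.993, 0.992 and 0.993 in CD24+CD172a+ cDC2, CD24-CD172a+ cDC2 and cDC1, and genes are not independent replicates.

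Replication begins when the origin recognition complex, with Cdc6 and Cdt1, loads the MCM helicase onto DNA in G1. Cyclin-dependent kinases then recruit Cdc45 and GINS to switch the helicase on, and polymerases copy both strands behind it, held by the PCNA clamp and fed by ribonucleotide reductase. E2F factors, released from Rb when D-type and E-type cyclins activate their kinases, drive many of these genes at the G1/S boundary. In the dendritic cell lineage, division is known mostly from committed precursors, while splenic cDC also hold a dividing fraction.

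E2F binding sites are a textbook feature of replication promoters, so the windows of 3 members from the helicase and ligation steps, and of a member without a match, are shown. They come from RefSeq on GRCm38.p6 and run from 250 bases before to 50 bases after the gene's start. Capitals mark matches, on either strand, to TTTCCCGC, TTTCGCGC, TTTGCCGC or TTTGGCGC, taken as E2F-type, and to CCAAT, the core of the NF-Y motif. The Mcm6 window lies at chr1:128359656-128359955 on the minus strand, Mcm7 at chr5:138171834-138172133 on the minus strand, Lig1 at chr7:13278576-13278875 on the plus strand and Rrm2 at chr12:24708004-24708303 on the plus strand.
Mcm6: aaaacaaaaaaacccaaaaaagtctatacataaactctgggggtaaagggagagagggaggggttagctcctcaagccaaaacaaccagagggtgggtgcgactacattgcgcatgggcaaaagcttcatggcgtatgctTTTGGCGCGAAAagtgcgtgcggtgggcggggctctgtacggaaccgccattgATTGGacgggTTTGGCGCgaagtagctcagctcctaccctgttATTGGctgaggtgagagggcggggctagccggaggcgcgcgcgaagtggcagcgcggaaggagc
Mcm7: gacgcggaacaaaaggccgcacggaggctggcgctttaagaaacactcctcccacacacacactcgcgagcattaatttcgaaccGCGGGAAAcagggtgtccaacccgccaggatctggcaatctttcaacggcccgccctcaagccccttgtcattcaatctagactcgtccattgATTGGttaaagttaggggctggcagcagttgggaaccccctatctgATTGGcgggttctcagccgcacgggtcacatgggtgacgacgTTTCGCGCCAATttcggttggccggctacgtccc
Lig1: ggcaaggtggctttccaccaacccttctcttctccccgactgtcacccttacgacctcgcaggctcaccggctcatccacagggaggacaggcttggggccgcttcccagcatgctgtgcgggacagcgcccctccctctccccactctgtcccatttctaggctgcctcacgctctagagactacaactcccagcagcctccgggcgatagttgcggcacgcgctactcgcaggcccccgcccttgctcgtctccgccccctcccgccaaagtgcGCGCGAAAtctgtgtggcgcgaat
Rrm2: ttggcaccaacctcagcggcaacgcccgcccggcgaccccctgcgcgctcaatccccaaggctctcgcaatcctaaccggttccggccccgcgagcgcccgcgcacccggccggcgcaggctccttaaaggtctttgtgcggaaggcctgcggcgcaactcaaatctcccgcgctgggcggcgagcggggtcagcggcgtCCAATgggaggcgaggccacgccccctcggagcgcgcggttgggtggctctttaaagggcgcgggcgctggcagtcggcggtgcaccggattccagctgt

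Mcm6 held 3 E2F-type matches, of which a pair overlap on opposite strands in one run of capitals, and 2 CCAAT matches. Mcm7 held 2 E2F-type matches and 3 CCAAT matches, and one of each share a base near the end of the window. The table lists 2 windows for Mcm7 and 3 for Lig1, and that with the most E2F-type matches is shown. Lig1 held 1 E2F-type match and no CCAAT, and Rrm2 held no E2F-type match and 1 CCAAT. Of the 58 genes, 46 matched the promoter table, with 52 windows. An E2F-type match stood in 19 of these 52 windows (36.5%), against 744 of 32851 windows of all genes (2.26%). CCAAT stood in 30 of the 52 (57.7%), against 37.4% of all windows. A match describes the letters of the window and is not a binding site.

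Transcripts of the replication genes were, as a group, highest in CD24+CD172a+ cDC2. Of the 58 genes, 44 (75.9%) had their highest mean there, against 27.2% of all genes tested, while 11 had it in cDC1 and 3 in CD24-CD172a+ cDC2. The lowest mean fell in CD24-CD172a+ cDC2 for 34 genes, in cDC1 for 23 and in CD24+CD172a+ cDC2 for Rfc5 alone. In that order these are 58.6%, 39.7% and 1.72% of the members, against 31.6%, 34.0% and 34.4% of all genes. The cDC1 share is thus near the background. Centred on each gene's own mean, the median member stood at 0.20 and 0.28 log2 units on the CD24+CD172a+ cDC2 arrays, -0.15 and -0.14 on the CD24-CD172a+ cDC2 arrays, and 0.01 and -0.07 on the cDC1 arrays. The CD24+CD172a+ cDC2 arrays were both above the rest, and those of CD24-CD172a+ cDC2 both below. In sorted populations measured in bulk, fewer cells of a kind and less RNA per cell cannot be told apart.

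**Figure D1:**
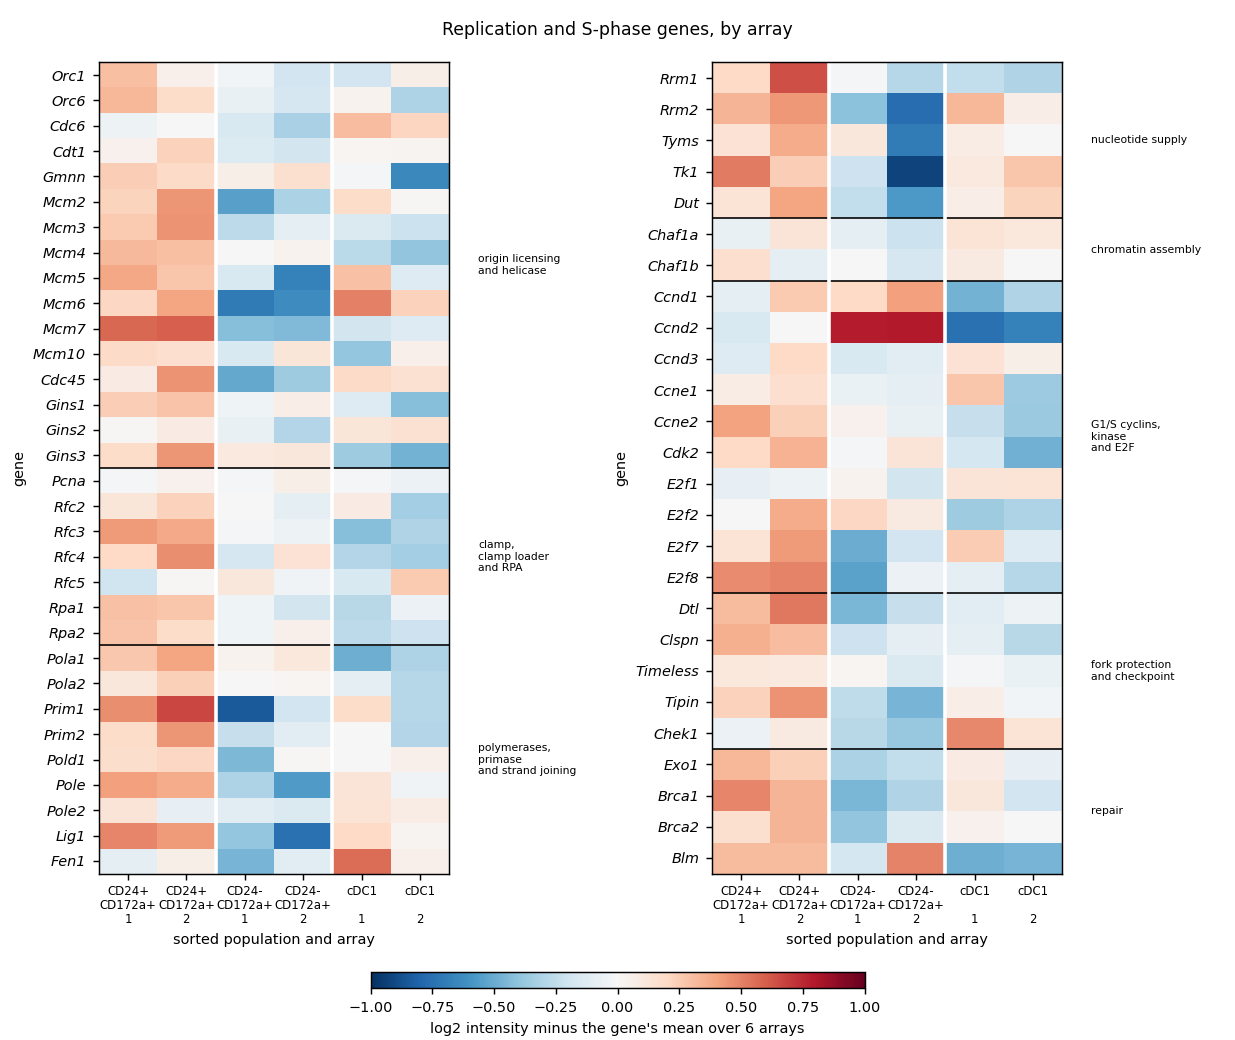
Each cell shows a gene's log2 intensity on 1 array minus that gene's mean over the 6 arrays (colour scale from -1 to 1), with genes in rows by role and arrays in columns by population. The CD24+CD172a+ cDC2 columns are red for most genes, the CD24-CD172a+ cDC2 columns blue for many, and Ccnd2 is reddest in the CD24-CD172a+ cDC2 columns.

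Differences were called with limma at a Benjamini-Hochberg adjusted p under 0.05, adjusted over all 19938 genes. In CD24+CD172a+ cDC2 over CD24-CD172a+ cDC2, 10 of the 58 genes rose, 1 fell and 47 were not called. Over all genes tested, 0.808% were higher and 0.652% lower in this comparison, against 17.2% and 1.72% of the members. The genes that rose were Mcm2, Mcm6, Mcm7, Prim1, Pole, Lig1, Rrm2, Dtl, Tipin and Brca1, and the gene that fell was Ccnd2. The median difference of the 58 was 0.34 log2 units, against -0.01 over all genes, and 54 of the 58 differences were above 0. Both CD24+CD172a+ cDC2 arrays lay above both CD24-CD172a+ cDC2 arrays in 49 of 58 genes, against 21.4% of all genes, and below them in 1, against 22.8%. Without either CD24+CD172a+ cDC2 array no member was called, and without the CD24-CD172a+ cDC2 array 1 or 2 the number that rose was 6 or 3 and Ccnd2 was not called, while 52 to 54 differences stayed above 0 in each fit that left out 1 array. Such a fit leaves a population with 1 array, which is assumed to vary like the other groups. In limma's test against a change of 1.5-fold, 0 of the 58 were called, while 33 had an unadjusted p under 0.05 against no change. Leaving the 3 D-type cyclins out, 53 of 55 differences were above 0.

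In CD24+CD172a+ cDC2 over cDC1, 18 of the 58 genes rose, 0 fell and 40 were not called, where 29 had an unadjusted p under 0.05. Over all genes tested, 7.11% were higher and 6.52% lower, against 31.0% of the members higher. The median member difference was 0.33, against -0.03 over all genes, and 47 of 58 were above 0. The CD24+CD172a+ cDC2 arrays lay wholly above the cDC1 arrays in 39 genes (23.5% of all genes) and wholly below in 4 (28.6% of all genes). Without CD24+CD172a+ cDC2 array 1 or 2 the median member difference was 0.34 or 0.33. Without cDC1 array 1 or 2 it was 0.42 or 0.26. Each of these 4 fits lost some of the 18 calls. Mcm7, Pola1 and Rfc3 were called in all 4 of these fits. No member passed the test against 1.5-fold.

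In CD24-CD172a+ cDC2 over cDC1, the members split, with 5 higher, 10 lower and 43 not called. The background was 6.83% higher and 8.91% lower, so the 8.62% of members higher is near it and the 17.2% lower is above it. The median member difference was -0.12, against 0.00 over all genes, with 23 of 58 above 0 and 35 below. Arrays of CD24-CD172a+ cDC2 lay wholly above those of cDC1 in 16 genes (25% of all genes) and wholly below in 26 (27.4% of all genes), so that the first share is near the background and the second above it. Without CD24-CD172a+ cDC2 array 1 or 2 the median member difference was -0.11 or -0.085. Without cDC1 array 1 or 2 it was -0.18 or -0.19. Each of these 4 fits lost some of the 10 lower and some of the 5 higher calls. Ccnd2 and Mcm6 were called in all 4 of these fits. The 3 comparisons share arrays, so their calls are not independent of each other.

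**Figure D2:**
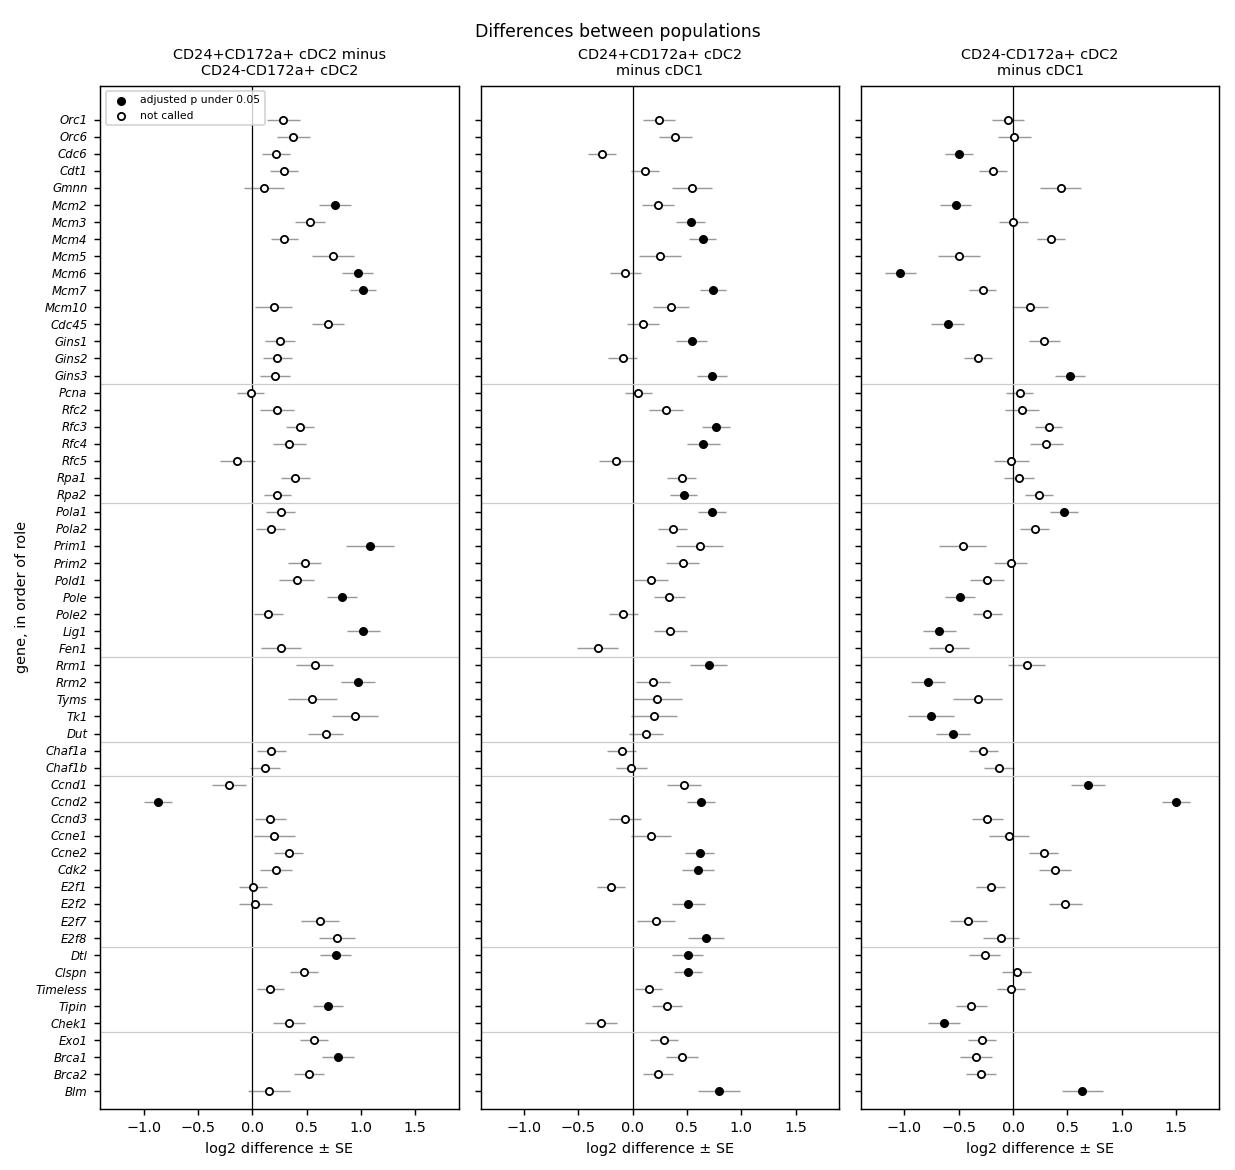
Points give the log2 difference of each gene, with its SE, in CD24+CD172a+ cDC2 minus CD24-CD172a+ cDC2, CD24+CD172a+ cDC2 minus cDC1, and CD24-CD172a+ cDC2 minus cDC1; filled points have an adjusted p under 0.05. In the first panel 54 of 58 points lie right of 0, and Ccnd2 is the filled point on the left.

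Across the 3 comparisons, 32 of the 58 genes were called at least once and 26 never. Of all genes tested, 1.46% were called in either direction in CD24+CD172a+ cDC2 over CD24-CD172a+ cDC2. The shares were 13.6% in CD24+CD172a+ cDC2 over cDC1 and 15.7% in CD24-CD172a+ cDC2 over cDC1. Neither calls in at least 1 comparison nor the patterns below were counted over all genes, so these counts have no background beside them. The most common pattern was higher in CD24+CD172a+ cDC2 than in cDC1 and called in neither other comparison, with 12 genes: Mcm3, Mcm4, Gins1, Rfc3, Rfc4, Rpa2, Rrm1, Ccne2, Cdk2, E2f2, E2f8 and Clspn. A further 5 genes, Mcm2, Mcm6, Pole, Lig1 and Rrm2, were higher in CD24+CD172a+ cDC2 than in CD24-CD172a+ cDC2 and lower in CD24-CD172a+ cDC2 than in cDC1. Cdc6, Cdc45, Tk1, Dut and Chek1, another 5, were called solely as lower in CD24-CD172a+ cDC2 than in cDC1. Mcm7 and Dtl were higher in CD24+CD172a+ cDC2 than in each other population. Gins3, Pola1 and Blm were higher than in cDC1 in both cDC2 populations.

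Of the 16 origin licensing and helicase genes, 3 rose and 0 fell in CD24+CD172a+ cDC2 over CD24-CD172a+ cDC2, and 5 rose and 0 fell over cDC1. In CD24-CD172a+ cDC2 over cDC1, 1 rose and 4 fell. Their median differences were 0.29, 0.30 and -0.11. The shares that rose were 18.75%, 31.25% and 6.25%, against 0.808%, 7.11% and 6.83% of all genes, so the last is near the background. The share that fell in the last comparison was 25%, against 8.91% of all genes. Of the 6 subunits of the MCM2-7 ring, the motor of the replicative helicase, 3 rose over CD24-CD172a+ cDC2 and 3 over cDC1 in CD24+CD172a+ cDC2, and 2 fell in CD24-CD172a+ cDC2 over cDC1.

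Mcm7 measured 6.94 and 6.96 in CD24+CD172a+ cDC2, against 5.94 and 5.92 in CD24-CD172a+ cDC2 and 6.18 and 6.24 in cDC1. Its replicates lay close together and the 3 populations did not overlap. It was 2.03-fold higher in CD24+CD172a+ cDC2 than in CD24-CD172a+ cDC2 (log2 difference 1.02 ± 0.12 SE, adjusted p = 0.0049) and 1.67-fold higher than in cDC1 (0.74 ± 0.12, adjusted p = 0.0020). Mcm6 measured 7.67 and 7.86 in CD24+CD172a+ cDC2, against 6.75 and 6.84 in CD24-CD172a+ cDC2 and 7.97 and 7.70 in cDC1. Its low population was CD24-CD172a+ cDC2, and the other two overlapped. It was 1.96-fold higher in CD24+CD172a+ cDC2 than in CD24-CD172a+ cDC2 (0.97 ± 0.14, adjusted p = 0.0108), and CD24-CD172a+ cDC2 was 2.05-fold below cDC1 (-1.04 ± 0.14, adjusted p = 0.00057). Between CD24+CD172a+ cDC2 and cDC1 its difference was -0.07 ± 0.14, which was not called.

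Mcm2 shared the Mcm6 pattern, with 6.64 and 6.86 in CD24+CD172a+ cDC2, against 5.88 and 6.10 in CD24-CD172a+ cDC2 and 6.60 and 6.43 in cDC1. Its differences were 0.76 ± 0.15 in CD24+CD172a+ cDC2 over CD24-CD172a+ cDC2 (adjusted p = 0.0365) and -0.53 ± 0.15 in CD24-CD172a+ cDC2 over cDC1 (adjusted p = 0.0322). Mcm3 and Mcm4 instead rose over cDC1. Mcm3 measured 6.76 and 6.95 in CD24+CD172a+ cDC2, against 6.23 and 6.41 in CD24-CD172a+ cDC2 and 6.36 and 6.28 in cDC1, where CD24+CD172a+ cDC2 exceeded cDC1 by 0.53 ± 0.14 (adjusted p = 0.0245). Mcm4 measured 7.37 and 7.35 in CD24+CD172a+ cDC2, against 7.05 and 7.09 in CD24-CD172a+ cDC2 and 6.78 and 6.66 in cDC1, a difference over cDC1 of 0.64 ± 0.13 (adjusted p = 0.00558). For both genes the CD24+CD172a+ cDC2 arrays were the highest of the 6. Mcm5 measured 6.67 and 6.56 in CD24+CD172a+ cDC2, against 6.13 and 5.61 in CD24-CD172a+ cDC2 and 6.58 and 6.15 in cDC1. Its arrays were widely spread in CD24-CD172a+ cDC2 and no difference was called, the one over CD24-CD172a+ cDC2 being 0.74 ± 0.19 (adjusted p = 0.103).

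Gins3, a subunit of the GINS complex, measured 5.73 and 5.99 in CD24+CD172a+ cDC2, 5.65 on both CD24-CD172a+ cDC2 arrays, and 5.19 and 5.07 in cDC1. Both cDC2 populations lay above cDC1, by 0.73 ± 0.14 (adjusted p = 0.00448) in CD24+CD172a+ cDC2 and by 0.52 ± 0.14 (adjusted p = 0.0258) in CD24-CD172a+ cDC2. Cdc45, the helicase activator, measured 6.33 and 6.70 in CD24+CD172a+ cDC2, against 5.74 and 5.90 in CD24-CD172a+ cDC2 and 6.44 and 6.40 in cDC1. It was called lower in CD24-CD172a+ cDC2 than in cDC1 (-0.60 ± 0.15, adjusted p = 0.0207), while its 0.70 ± 0.15 in CD24+CD172a+ cDC2 over CD24-CD172a+ cDC2 just missed (adjusted p = 0.0549). Cdc6, the loading factor, was lower in CD24-CD172a+ cDC2 than in cDC1 by a log2 difference of -0.50 ± 0.13 (adjusted p = 0.0252). Orc1 and Orc6 of the origin recognition complex, Cdt1, its inhibitor geminin (Gmnn), Mcm10 and Gins2 were called in no comparison.

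**Figure D3:**
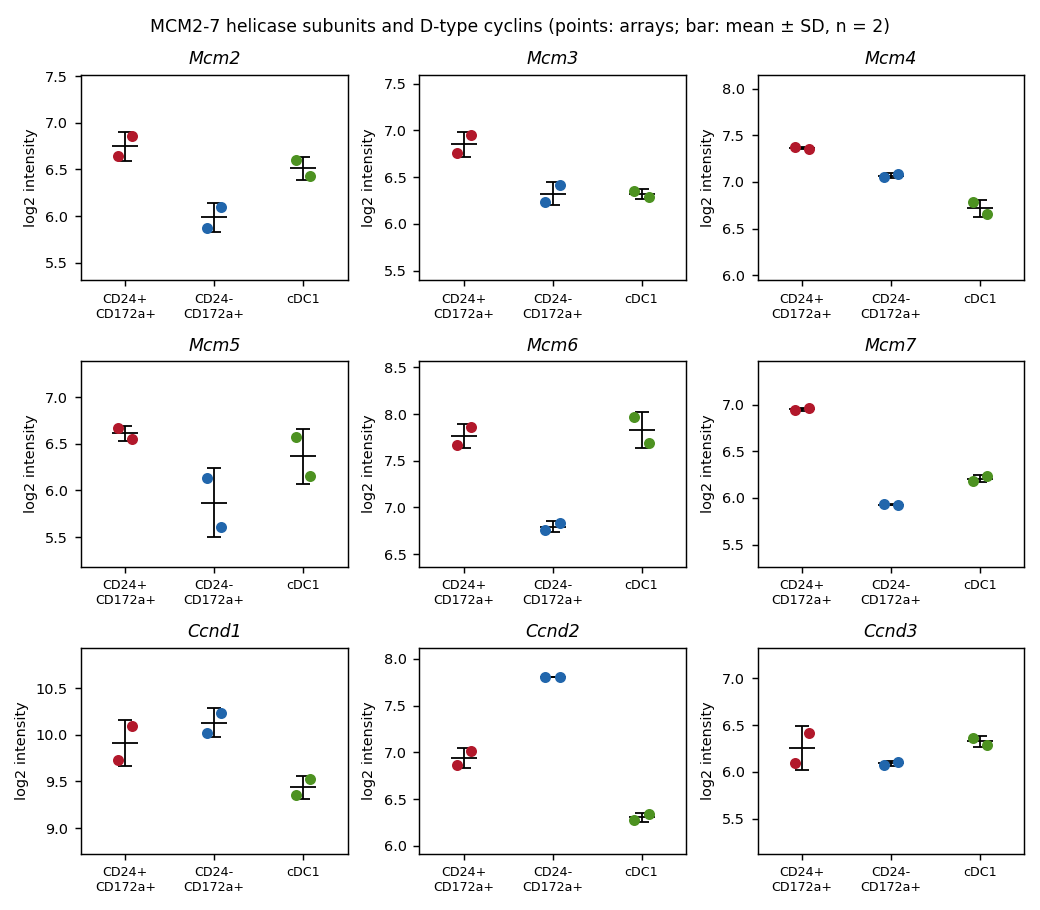
Points are arrays, with bars for mean ± SD (n = 2), for the 6 MCM2-7 subunits and the 3 D-type cyclins in log2 intensity; each panel spans its own levels. CD24+CD172a+ cDC2 leads in Mcm7, CD24-CD172a+ cDC2 is lowest in Mcm2 and Mcm6, and Ccnd2 is highest in CD24-CD172a+ cDC2.

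Among 7 genes of the clamp, its loader and the single-strand binding protein RPA, limma called 0 between the cDC2 populations, where 3 had an unadjusted p under 0.05. In CD24+CD172a+ cDC2 over cDC1, 3 rose (42.9%), against 7.11% of all genes. Rfc3, a clamp loader subunit, measured 6.72 and 6.68 in CD24+CD172a+ cDC2, against 6.27 and 6.24 in CD24-CD172a+ cDC2 and 5.87 and 5.99 in cDC1. The populations did not overlap, and CD24+CD172a+ cDC2 exceeded cDC1 by 0.77 ± 0.13 (adjusted p = 0.00185). Rfc4, of the same complex, measured 6.31 and 6.58 in CD24+CD172a+ cDC2, against 5.95 and 6.26 in CD24-CD172a+ cDC2 and 5.82 and 5.77 in cDC1, and rose over cDC1 by 0.65 ± 0.15 (adjusted p = 0.0161). Rpa2 measured 6.78 and 6.68 in CD24+CD172a+ cDC2, against 6.46 and 6.55 in CD24-CD172a+ cDC2 and 6.24 and 6.29 in cDC1, a rise over cDC1 of 0.47 ± 0.13 (adjusted p = 0.0320). Pcna, the clamp itself and a common proliferation marker, measured 11.46 and 11.53 in CD24+CD172a+ cDC2, against 11.47 and 11.54 in CD24-CD172a+ cDC2 and 11.46 and 11.42 in cDC1. Its differences of -0.01, 0.05 and 0.06 were smaller than their SE of 0.12, and none was called. A slightly dimmer probe set of Pcna, with nearly the same level on each array, gave -0.02, 0.05 and 0.06. Whether it reads a separate signal was not tested.

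Of the 9 polymerase, primase and strand-joining genes, 3 rose in CD24+CD172a+ cDC2 over CD24-CD172a+ cDC2 and 1 rose over cDC1. In CD24-CD172a+ cDC2 over cDC1, 1 rose and 2 fell. The first 3 were 33.3% of the group, against 0.808% of all genes. The single rises were 11.1% each, near the 7.11% and 6.83% of all genes. The 2 that fell were 22.2%, against 8.91%. Lig1, the ligase that seals Okazaki fragments, measured 7.10 and 7.05 in CD24+CD172a+ cDC2, against 6.23 and 5.87 in CD24-CD172a+ cDC2 and 6.82 and 6.64 in cDC1. CD24+CD172a+ cDC2 was highest and CD24-CD172a+ cDC2 lowest, with no overlap. The log2 difference was 1.02 ± 0.15, or 2.03-fold, over CD24-CD172a+ cDC2 (adjusted p = 0.0106), and -0.68 ± 0.15 in CD24-CD172a+ cDC2 over cDC1 (adjusted p = 0.0110). Pole, the catalytic subunit of the leading-strand polymerase, measured 5.92 and 5.88 in CD24+CD172a+ cDC2, against 5.20 and 4.95 in CD24-CD172a+ cDC2 and 5.64 and 5.48 in cDC1. It showed the same order, at 0.83 ± 0.14 (adjusted p = 0.0211) over CD24-CD172a+ cDC2 and -0.49 ± 0.14 (adjusted p = 0.0380) in CD24-CD172a+ cDC2 over cDC1.

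Pola1, the polymerase subunit that extends primers, was lowest in cDC1. It measured 6.90 and 7.02 in CD24+CD172a+ cDC2, against 6.66 and 6.73 in CD24-CD172a+ cDC2 and 6.14 and 6.32 in cDC1. Both cDC2 populations were above cDC1, by 0.73 ± 0.13 (adjusted p = 0.00352) and 0.47 ± 0.13 (adjusted p = 0.0360) in CD24+CD172a+ and CD24-CD172a+ cDC2. Prim1, the catalytic primase subunit, measured 7.34 and 7.55 in CD24+CD172a+ cDC2, against 6.04 and 6.68 in CD24-CD172a+ cDC2 and 7.06 and 6.59 in cDC1. Its rise of 1.08 ± 0.22, or 2.12-fold, over CD24-CD172a+ cDC2 (adjusted p = 0.0439) was the widest difference of any member in that comparison, and its CD24-CD172a+ cDC2 arrays were 0.64 apart. Pola2, Prim2, Pold1, Pole2 and the flap nuclease Fen1 were not called.

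The 5 genes of nucleotide supply had the largest median difference of the 8 role groups between the cDC2 populations, 0.67. There 1 of them rose (20%), against 0.808% of all genes. In CD24-CD172a+ cDC2 over cDC1 their median was -0.56 and 3 fell (60%), against 8.91% of all genes. Rrm2, the small subunit of ribonucleotide reductase, measured 6.28 and 6.38 in CD24+CD172a+ cDC2, against 5.53 and 5.18 in CD24-CD172a+ cDC2 and 6.27 and 6.01 in cDC1. The CD24-CD172a+ cDC2 arrays were the lowest of the 6. CD24+CD172a+ cDC2 exceeded them by 0.98 ± 0.16, or 1.97-fold (adjusted p = 0.0171), and they lay below cDC1 at -0.79 ± 0.16 (adjusted p = 0.00612). Rrm1, the large subunit, measured 7.16 and 7.60 in CD24+CD172a+ cDC2, against 6.94 and 6.67 in CD24-CD172a+ cDC2 and 6.71 and 6.65 in cDC1, and rose over cDC1 by 0.70 ± 0.17 (adjusted p = 0.0181). So the subunits of one enzyme were called in different comparisons, and whether their differences differ was not tested.

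Dut, which removes dUTP, measured 6.72 and 6.98 in CD24+CD172a+ cDC2, against 6.34 and 6.01 in CD24-CD172a+ cDC2 and 6.65 and 6.82 in cDC1. It was lower in CD24-CD172a+ cDC2 than in cDC1 (-0.56 ± 0.16, adjusted p = 0.0368). Tk1, the S-phase thymidine kinase, measured 8.61 and 8.33 in CD24+CD172a+ cDC2, against 7.88 and 7.17 in CD24-CD172a+ cDC2 and 8.19 and 8.37 in cDC1. CD24-CD172a+ cDC2 was again lowest (-0.75 ± 0.21 against cDC1, adjusted p = 0.0354), with arrays 0.71 apart. A dimmer probe set of Tk1 gave -0.16 in the same comparison and was not called, so the 2 probe sets disagree in call. Tyms, thymidylate synthase, had the widest gap between replicates of any member, 6.71 against 5.90 in CD24-CD172a+ cDC2, and was not called.

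The chromatin assembly factor genes Chaf1a and Chaf1b, which deposit histones behind the fork, were called in no comparison, and 0 of their limma tests had an unadjusted p under 0.05. Chaf1a measured 5.28 and 5.49 in CD24+CD172a+ cDC2, against 5.27 and 5.15 in CD24-CD172a+ cDC2 and 5.50 and 5.47 in cDC1. Chaf1b measured 5.22 and 4.96 in CD24+CD172a+ cDC2, against 5.06 and 4.89 in CD24-CD172a+ cDC2 and 5.15 and 5.06 in cDC1. For Chaf1b the CD24+CD172a+ cDC2 arrays overlapped those of each other population. Its CD24-CD172a+ cDC2 and cDC1 arrays nearly met, the nearest being 5.058 and 5.060.

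Ccnd2, cyclin D2, was the member called lower in CD24+CD172a+ cDC2 than in CD24-CD172a+ cDC2. It measured 6.86 and 7.01 in CD24+CD172a+ cDC2, 7.80 on both CD24-CD172a+ cDC2 arrays, and 6.27 and 6.34 in cDC1. The 3 populations were fully separated. Ccnd2 was 1.83-fold lower in CD24+CD172a+ cDC2 than in CD24-CD172a+ cDC2 (-0.87 ± 0.13, adjusted p = 0.0106), higher in CD24+CD172a+ cDC2 than in cDC1 (0.63 ± 0.13, adjusted p = 0.00682), and 2.83-fold higher in CD24-CD172a+ cDC2 than in cDC1 (1.4995 ± 0.13, adjusted p = 1.68e-05). Ccnd1, cyclin D1, measured 9.73 and 10.09 in CD24+CD172a+ cDC2, against 10.02 and 10.24 in CD24-CD172a+ cDC2 and 9.35 and 9.52 in cDC1. It was higher in CD24-CD172a+ cDC2 than in cDC1 (0.69 ± 0.16, adjusted p = 0.0124), and its cDC2 arrays overlapped. Ccnd3 measured 6.09 and 6.42 in CD24+CD172a+ cDC2, against 6.07 and 6.11 in CD24-CD172a+ cDC2 and 6.37 and 6.28 in cDC1, and was not called.

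The other G1/S genes, which act after the D-type cyclins, were called against cDC1 where they were called at all. Of the 10 G1/S genes with the D-type cyclins included, 5 (50%) rose in CD24+CD172a+ cDC2 over cDC1, against 7.11% of all genes. They were Ccnd2, Ccne2, Cdk2, E2f2 and E2f8. Ccne2, cyclin E2, measured 6.12 and 5.96 in CD24+CD172a+ cDC2, against 5.76 and 5.65 in CD24-CD172a+ cDC2 and 5.49 and 5.35 in cDC1, with a rise over cDC1 of 0.62 ± 0.13 (adjusted p = 0.0102). Cdk2, the kinase it binds, measured 6.36 and 6.51 in CD24+CD172a+ cDC2, against 6.14 and 6.29 in CD24-CD172a+ cDC2 and 5.99 and 5.68 in cDC1, with a rise of 0.60 ± 0.15 (adjusted p = 0.0199). For both genes the order was CD24+CD172a+ cDC2, CD24-CD172a+ cDC2, cDC1, without overlap. E2f8, a repressor of the E2F family, measured 6.24 and 6.26 in CD24+CD172a+ cDC2, against 5.23 and 5.70 in CD24-CD172a+ cDC2 and 5.67 and 5.48 in cDC1. It rose over cDC1 by 0.67 ± 0.17 (adjusted p = 0.0207), while 0.78 ± 0.17 over CD24-CD172a+ cDC2 was not called (adjusted p = 0.0513). E2f1, an activator, had differences of 0.01, -0.20 and -0.21, none called, and E2f2 rose over cDC1 by 0.51 ± 0.15 (adjusted p = 0.0474).

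Of 5 fork protection and checkpoint genes, 2 rose in CD24+CD172a+ cDC2 over CD24-CD172a+ cDC2 and 2 over cDC1. Each is 40% of the group, against 0.808% and 7.11% of all genes. Dtl, the substrate receptor of the ubiquitin ligase that degrades Cdt1 in S phase, rose in both comparisons. It measured 5.46 and 5.67 in CD24+CD172a+ cDC2, against 4.69 and 4.91 in CD24-CD172a+ cDC2 and 5.04 and 5.09 in cDC1, with differences of 0.77 ± 0.14 (adjusted p = 0.0315) over CD24-CD172a+ cDC2 and 0.51 ± 0.14 (adjusted p = 0.0368) over cDC1. Tipin, the fork protection partner of Timeless, measured 7.22 and 7.44 in CD24+CD172a+ cDC2, against 6.74 and 6.53 in CD24-CD172a+ cDC2 and 7.06 and 6.96 in cDC1, and rose over CD24-CD172a+ cDC2 by 0.70 ± 0.14 (adjusted p = 0.0426). Timeless itself differed by 0.17 ± 0.13 and was not called. Clspn, the adaptor that lets ATR activate the checkpoint kinase, measured 5.65 and 5.60 in CD24+CD172a+ cDC2, against 5.09 and 5.21 in CD24-CD172a+ cDC2 and 5.21 and 5.02 in cDC1, and rose over cDC1 by 0.51 ± 0.13 (adjusted p = 0.0267). Chek1, that kinase, measured 4.84 and 4.99 in CD24+CD172a+ cDC2, against 4.63 and 4.52 in CD24-CD172a+ cDC2 and 5.38 and 5.04 in cDC1. It was highest in cDC1, and CD24-CD172a+ cDC2 was below cDC1 at -0.63 ± 0.15 (adjusted p = 0.0146). Its mean was under the median of all genes, so the fit with genes under that median left out did not test it.

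Among the 4 repair genes, Brca1, a homologous recombination factor, measured 5.15 and 5.001 in CD24+CD172a+ cDC2, against 4.21 and 4.36 in CD24-CD172a+ cDC2 and 4.77 and 4.47 in cDC1. It rose in CD24+CD172a+ cDC2 over CD24-CD172a+ cDC2 by 0.79 ± 0.15 (adjusted p = 0.0321), and it lies among the 9 members whose mean was under the median of all genes, where signal over background was not examined. The fit with genes under that median left out did not test Brca1. Blm, the Bloom helicase, measured 5.62 and 5.63 in CD24+CD172a+ cDC2, against 5.14 and 5.80 in CD24-CD172a+ cDC2 and 4.82 and 4.84 in cDC1. Both cDC2 populations were above cDC1, by 0.79 ± 0.19 (adjusted p = 0.0185) in CD24+CD172a+ cDC2 and 0.64 ± 0.19 (adjusted p = 0.0466) in CD24-CD172a+ cDC2, whose arrays were 0.67 apart. Brca2 and the exonuclease Exo1 were not called, with 0.52 ± 0.14 and 0.57 ± 0.13 in CD24+CD172a+ cDC2 over CD24-CD172a+ cDC2.

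Set against promoters, 4 of the 8 matched genes that rose in CD24+CD172a+ cDC2 over CD24-CD172a+ cDC2 held an E2F-type match (Dtl, Lig1, Mcm6 and Mcm7), and Brca1, Mcm2, Prim1 and Rrm2 did not. Of the 14 matched genes that rose over cDC1, 9 held one. Of the 26 called higher in neither comparison, 8 did. These shares are descriptions of a few genes.

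Other genes of DNA replication gave a similar but smaller count. Of 38 measured, 3 rose and 0 fell in CD24+CD172a+ cDC2 over CD24-CD172a+ cDC2, with a median of 0.30, and 8 rose and 1 fell over cDC1. The shares that rose were 7.89% and 21.1%, against 0.808% and 7.11% of all genes. Over cDC1, 2.63% fell, against 6.52% of all genes. Those that rose over CD24-CD172a+ cDC2 were Dnmt1, the maintenance DNA methyltransferase (0.87 ± 0.14, adjusted p = 0.0151), Hells, a chromatin remodeller (0.89 ± 0.18, adjusted p = 0.0426), and Ticrr, which helps activate origins (0.84 ± 0.15, adjusted p = 0.0272). Hells measured 5.49 and 5.71 in CD24+CD172a+ cDC2, against 4.50 and 4.92 in CD24-CD172a+ cDC2 and 5.65 and 6.001 in cDC1. Donson, a replisome factor, measured 7.62 and 7.59 in CD24+CD172a+ cDC2, against 7.58 and 7.72 in CD24-CD172a+ cDC2 and 6.75 and 6.28 in cDC1. Hells was lowest in CD24-CD172a+ cDC2, and Donson was lowest in cDC1, where CD24+CD172a+ cDC2 exceeded it by 1.09 ± 0.16 (adjusted p = 0.00101).

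Atad5, which unloads the PCNA clamp, was above cDC1 in both cDC2 populations, by 1.005 ± 0.14 for CD24+CD172a+ (adjusted p = 0.000632) and 0.53 ± 0.14 for CD24-CD172a+ (adjusted p = 0.0263). Rfc1, the large clamp loader subunit, was lower in CD24-CD172a+ cDC2 than in cDC1 (-0.76 ± 0.13, adjusted p = 0.0019). The 25 other nucleotide supply genes had 0 limma calls between the cDC2 populations, where 9 had an unadjusted p under 0.05. Over cDC1, 1 rose and 2 fell in CD24+CD172a+ cDC2, and 3 rose and 5 fell in CD24-CD172a+ cDC2. Umps, which makes UMP, measured 6.53 and 6.60 in CD24+CD172a+ cDC2, against 6.34 and 6.13 in CD24-CD172a+ cDC2 and 7.52 on both cDC1 arrays. It fell by 0.96 ± 0.13 in CD24+CD172a+ cDC2 against cDC1 (adjusted p = 0.000559), and the purine synthesis gene Atic fell by 0.80 ± 0.15 (adjusted p = 0.00353). Ctps2, a CTP synthase, rose by 0.97 ± 0.14 (adjusted p = 0.000634). Shmt2, a mitochondrial folate enzyme, was called lower in CD24-CD172a+ cDC2 than in cDC1 (-0.70 ± 0.16, adjusted p = 0.0116). Of the 25 genes, 4% were higher and 8% lower in CD24+CD172a+ cDC2 over cDC1, near the 7.11% and 6.52% of all genes, and 12% were higher and 20% lower in CD24-CD172a+ cDC2 over cDC1, against 6.83% and 8.91% of all genes.

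Mitosis genes, which act after S phase, were also highest in CD24+CD172a+ cDC2. Of 34 measured, 10 rose and 0 fell in CD24+CD172a+ cDC2 over CD24-CD172a+ cDC2 (median 0.44), and 14 rose and 0 fell over cDC1 (median 0.49). The shares that rose were 29.4% and 41.2%, against 0.808% and 7.11% of all genes. The highest mean was in CD24+CD172a+ cDC2 for 26 of 34 (76.5%), against 27.2% of all genes. Top2a, topoisomerase II alpha, measured 8.68 and 8.70 in CD24+CD172a+ cDC2, against 7.49 and 7.83 in CD24-CD172a+ cDC2 and 7.63 and 7.65 in cDC1. Bub1, a spindle checkpoint kinase, measured 6.54 and 6.64 in CD24+CD172a+ cDC2, against 5.42 and 5.60 in CD24-CD172a+ cDC2 and 5.33 on both cDC1 arrays. In both genes CD24+CD172a+ cDC2 stood clear of the other two, by 1.04 ± 0.14 for Top2a (adjusted p = 0.00973) and 1.08 ± 0.13 for Bub1 (adjusted p = 0.00495) over CD24-CD172a+ cDC2. With the probe sets of Top2a averaged, its difference over CD24-CD172a+ cDC2 was 0.43 and was not called (adjusted p = 0.265). Over cDC1, Nusap1 and Ndc80, spindle and kinetochore proteins, rose by 1.34 ± 0.18 (adjusted p = 0.000546) and 1.11 ± 0.13 (adjusted p = 0.000141). Of these mitosis genes, 1 of 30 promoter windows held an E2F-type match (3.33%) and 22 held CCAAT (73.3%).

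**Figure D4:**
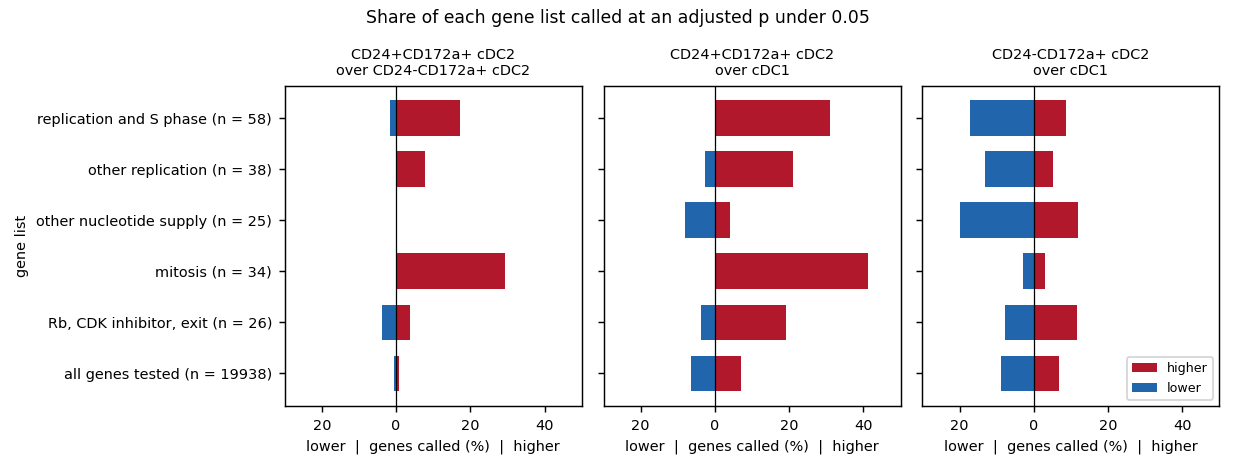
Bars give the percent of each gene list called higher (right) or lower (left) in each comparison, with the number of genes measured and all 19938 genes as the bottom bar. Between the cDC2 populations the replication and S-phase genes reach 17.2% higher, against 0.808% of all genes.

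Genes of Rb, CDK inhibitors and cell cycle exit had 26 measured members, of which 1 rose and 1 fell in CD24+CD172a+ cDC2 over CD24-CD172a+ cDC2. Each of these is 3.85% of the list, against 0.808% of all genes higher and 0.652% lower. Cdk4, the cyclin D partner kinase, rose by 0.79 ± 0.13 (adjusted p = 0.0171), and Btg1, an antiproliferative gene, fell by 0.75 ± 0.16 (adjusted p = 0.0499). Rb1, which restrains E2F, measured 8.65 and 8.50 in CD24+CD172a+ cDC2, against 8.68 and 8.96 in CD24-CD172a+ cDC2 and 7.13 and 7.30 in cDC1. Lin54, of the MuvB core that represses or activates cell cycle genes, measured 8.51 and 8.40 in CD24+CD172a+ cDC2, against 8.26 and 8.40 in CD24-CD172a+ cDC2 and 6.91 and 7.02 in cDC1. Both rose in CD24+CD172a+ cDC2 over cDC1, by 1.36 ± 0.14 for Rb1 (adjusted p = 9.12e-05) and 1.49 ± 0.13 for Lin54 (adjusted p = 2.08e-05), and neither was called between the cDC2 populations. E2f3 was lower than in cDC1 in both, at -0.63 ± 0.14 for CD24+CD172a+ cDC2 (adjusted p = 0.0101) and -0.87 ± 0.14 for CD24-CD172a+ cDC2 (adjusted p = 0.00138). With the probe sets of E2f3 averaged, these were -0.35 (adjusted p = 0.125) and -0.42 (adjusted p = 0.0569), neither called. Rbl2 rose in CD24+CD172a+ cDC2 over cDC1 by 0.68 ± 0.13 (adjusted p = 0.00482).

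Some marker lists of other cells had calls between the cDC2 populations, while the T and NK cell and erythroid lists had none. Over all genes tested, 0.808% were higher and 0.652% lower in CD24+CD172a+ cDC2 over CD24-CD172a+ cDC2. Of 10 pDC and DC precursor markers, 3 rose in CD24+CD172a+ cDC2 over CD24-CD172a+ cDC2 (Siglech, Tcf4 and Spib), with summed linear intensities of 2364 to 2427 in CD24+CD172a+ cDC2, 1795 to 1818 in CD24-CD172a+ cDC2 and 1496 to 1504 in cDC1. Of 10 monocyte and macrophage markers, 6 fell (Spic, Adgre1, Lyz2, C1qa, C1qb and C1qc), with sums of 1608 to 1902, 3495 to 3761 and 3564 to 3729 in the same order. Of 8 neutrophil markers, S100a8 and S100a9 rose and 0 fell, while 2 had negative differences. The sums were 299.7 to 335.4, 212.1 to 230 and 202.3 to 204.6, again in that order. Of 8 B cell and plasma cell markers, Jchain alone was called between the cDC2 populations, higher in CD24+CD172a+ cDC2, with sums of 281 to 284.7, 266.2 to 293.3 and 249.2 to 296.8. The 8 T and NK cell markers had 0 limma calls between the cDC2 populations (1 with an unadjusted p under 0.05), with sums of 301.9 to 316, 288.5 to 354.6 and 320.7 to 332.7. The 5 erythroid markers had 0 calls there (0 with an unadjusted p under 0.05), with sums of 126.8 to 129.6, 131.5 to 141.4 and 128.1 to 134.5. In CD24+CD172a+ cDC2 over cDC1, 5 pDC and DC precursor markers rose and 1 fell, 3 neutrophil markers rose and 0 fell, 3 B cell and plasma cell markers rose and 1 fell, and 2 monocyte and macrophage markers rose and 3 fell. In CD24-CD172a+ cDC2 over cDC1, 3 pDC and DC precursor markers rose and 3 fell, 1 neutrophil marker rose, 1 B cell and plasma cell marker rose and 1 fell, 4 monocyte and macrophage markers rose and 1 fell, and 1 T and NK cell marker rose. Over all genes tested, 7.11% were higher and 6.52% lower in CD24+CD172a+ cDC2 over cDC1, and 6.83% and 8.91% in CD24-CD172a+ cDC2 over cDC1. Depending on the population, 4 or 5 of the 8 T and NK cell markers had a mean under the 25th percentile of gene means. So did 2 or 3 of the 8 B cell and plasma cell markers. The part of other cells in the replication gene differences was not tested.

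Over the 6 arrays, the genes of these lists whose levels were most alike to the mean of the members were Jchain, Ccnb2, Ccna2, Cdk4 and Dtymk, as a description with 3 populations behind 6 points. Jchain, the joining chain of secreted antibody, measured 4.51 and 4.68 in CD24+CD172a+ cDC2, against 3.25 and 3.15 in CD24-CD172a+ cDC2 and 3.62 and 3.33 in cDC1. In CD24-CD172a+ cDC2 and cDC1 these levels are under the 25th percentile of gene means, 3.94. The mean of Jchain is under it too, so the fit without such genes did not test Jchain. Ccnb2, the mitotic cyclin B2, measured 8.41 and 8.71 in CD24+CD172a+ cDC2, against 7.34 and 7.56 in CD24-CD172a+ cDC2 and 7.83 and 7.67 in cDC1. Both genes were highest in CD24+CD172a+ cDC2 and lowest in CD24-CD172a+ cDC2.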

How the data were processed

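RNA of 3 sorted splenic populations was measured on 6 Affymetrix arrays. Per the labels' protocols, total RNA was column-extracted and biotinylated cDNA made with the Affymetrix WT Pico kit. Per the submitters' processing notes, the authors used Affymetrix Expression Console with RMA. Versions and build are not given in the sources used here. The deposited values are intensities on a linear scale (array medians 29.5 to 30.6), so log2 was taken first. Scanner files, detection calls and scan dates were not used here, so signal over background and batches were not examined, and the 2 arrays per population limit the precision. Gene symbols come from GEO's platform annotation. Of 28853 probe sets, 21789 have 1 symbol and were used, 1621 have several and 5443 none. For 999 genes with several probe sets, that with the highest mean was kept, leaving 19938 genes with no filter.

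Tests used limma 3.58.1 (R 4.3.3; lmFit and eBayes, all 6 arrays in 1 fit) with Benjamini-Hochberg adjustment over 19938 genes, threshold 0.05, 3 residual and 7.31 prior degrees of freedom. The code was tested on simulated data, where recovery was required only for changes larger than that of any member. That test does not show how often changes of the members' size are found. Genes given by array were, per role, up to 4 called genes with the smallest adjusted p, plus MCM2-7, D cyclins and Pcna; of each other pathway list, up to 4. Alternatives were filters, averaging of probe sets, 2 rescalings, other variance models, a fold threshold, a replicate block and leaving out each array. The members and lists were chosen with earlier results of these data known. Promoter windows are RefSeq, GRCm38.p6.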

Additional observations from a re-analysis of the deposited data

How the results depend on the processing

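No member median changed sign under any alternative run. Nor did any called gene among the members and the list genes picked by smallest adjusted p. Signs of other called genes were not followed. Against a 1.5-fold change, members called fell to 0 higher and 0 lower in CD24+CD172a+ cDC2 over CD24-CD172a+ cDC2 (genes 2 higher, 6 lower), 0 higher over cDC1 (genes 363 and 352), and 1 higher (Ccnd2) and 0 lower in CD24-CD172a+ cDC2 over cDC1 (genes 383 and 345). In CD24+CD172a+ cDC2 over CD24-CD172a+ cDC2, 161 genes were higher and 130 lower. With genes below the median left out 269 were higher, with an intensity trend 271, and with only the 4 arrays compared 94. Cyclic loess turned the split to 126 higher and 160 lower, with a member median of 0.28 in place of 0.34. In CD24-CD172a+ cDC2 over cDC1 it left 6 members lower in place of 10, and leaving out genes below the median gave 49 members a median of -0.036. Under cyclic loess, Prim1 and Tipin lost their call in CD24+CD172a+ cDC2 over CD24-CD172a+ cDC2, and Mcm2, Pole, Tk1 and Dut in CD24-CD172a+ cDC2 over cDC1. With only the 4 arrays compared, Mcm2, Dtl and Tipin, E2f2 (over cDC1), and Pola1, Pole, Tk1 and Blm (CD24-CD172a+ cDC2 over cDC1) lost theirs. The cause was not tested.

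Leaving out 1 array, members higher ranged from 0 to 7 in CD24+CD172a+ cDC2 over CD24-CD172a+ cDC2 (lower 0 to 1, genes higher 11 to 94, lower 9 to 93), and from 5 to 18 over cDC1 (genes 908 to 1426 and 811 to 1343, member median 0.26 to 0.42). In CD24-CD172a+ cDC2 over cDC1 they ranged from 1 to 4 (lower 1 to 10, genes 892 to 1249 and 1030 to 1590, member median -0.19 to -0.085). Fits with an array less have fewer degrees of freedom, and their lone array is assumed to vary like the other groups.

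With the replicate number as a block, 14 members rose and 1 fell in CD24+CD172a+ cDC2 over CD24-CD172a+ cDC2, adding Mcm5, Cdc45, Tk1 and E2f8. Over cDC1 19 rose, adding Ccnd1, and in CD24-CD172a+ cDC2 over cDC1 11 fell, adding Mcm5. Same-numbered arrays deviated together by r = 0.084, 0.084 and 0.024 over all genes. With replicate noise in every gene, these values cannot decide whether the numbers mark pairs, and the main fit took no pairing.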
